A study of Mus musculus with 6 samples.

Results

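Sorcs2 and Limch1 are long genes on mouse chromosome 5, at which many sites of open chromatin held fewer reads in granulocyte-monocyte progenitors with little GFI1. Both genes were chosen because many of their peaks had been called lower in this comparison, so the counts of called peaks given for them describe the choice and test nothing. A peak was taken as a member if it overlapped the body of either gene, or lay within 50 kb with that gene as the nearest protein-coding gene. This gave 66 of the 182166 peaks in the table, 36 at Sorcs2 and 30 at Limch1. Sorcs2 runs from 36017180 to 36398197 (mm10) and Limch1 from 66745889 to 67057159, so that they lie 71.3 Mb and 40.7 Mb from Gfi1 on the same chromosome.

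The assay was ATAC-seq, which marks open chromatin by letting a transposase (Tn5) insert sequencing adapters where DNA is exposed. It was run on granulocyte-monocyte progenitors (GMPs) flow-sorted from bone marrow, untreated and of strain C57BL/6. The transcription factor GFI1, a repressor with zinc fingers, directs blood progenitors towards the granulocyte lineage. In GFI1-KD mice (genotype KD/KD, libraries KD1 to KD3) human GFI1 is present at 10-20%, and in GFI1-KI mice (genotype KI/KI, libraries KI1 to KI3) human GFI1 stands in place of the murine gene, so neither genotype carries murine Gfi1. Each genotype had 3 libraries. Ages are not given in the labels used here, and whether each library was made from its own animal is not stated there. The p-values therefore reflect library-to-library spread only, and part of that spread could be technical.

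SorCS2, the product of Sorcs2, is a sorting receptor of the VPS10P-domain family. It is best known from neurons, where it binds precursor forms of neurotrophins together with the neurotrophin receptor encoded by Ngfr. LIMCH1, the product of Limch1, carries a LIM and a calponin homology domain, and in human cell lines it binds non-muscle myosin II and promotes its activity. Both functions are background, and ATAC-seq measures neither RNA nor protein.

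Depth, as reads falling in peaks, was 16022763 to 19857646 for GFI1-KD and 19408373 to 27741446 for GFI1-KI. KD1 held 0 reads on chromosome Y, which allows up to 3, and KI2 held 1, while the other 4 libraries held 499 to 865. At the ends of the mouse Gfi1 gene the peaks summed to 1474.3 ± 119.0 normalized reads in GFI1-KD and 1501.6 ± 149.7 in GFI1-KI (SD, n = 3 each), a sum over 4 peaks of which 1 was called lower and 1 higher. Human GFI1 has no sequence in the mouse build, so the genotype labels were not checked by these reads. Progenitor markers were open in every library, with summed gene-end levels of 8929 to 9344 normalized reads in GFI1-KD and 9126 to 9720 in GFI1-KI for 12 of 13 markers, Fcgr3 having no peak within 1 kb of an end. Of their 23 tested peaks 1 was called lower, at Kit, and 1 higher, at Mpo. Markers of stem and early progenitors, megakaryocytes and erythroid cells held fewer reads in GFI1-KD at these sites, without overlap between genotypes. The 9 stem and early progenitor markers summed to 3084 to 3301 in GFI1-KD and 3494 to 3804 in GFI1-KI, with 4 of 22 tested peaks called lower. Megakaryocyte markers with such a peak (6 of 8, Gp6 and Ppbp having none) summed to 1070 to 1229 in GFI1-KD and 1440 to 1695 in GFI1-KI, with 4 of 14 called lower. Erythroid markers (4 of 8, Gata1, Hba-a1, Alas2 and Car1 having none) summed to 984 to 1051 in GFI1-KD and 1206 to 1331 in GFI1-KI, with 2 of 9 called lower. Mature monocyte and macrophage markers summed to 2128 to 2452 in GFI1-KD and 1908 to 2214 in GFI1-KI, with 3 of 16 called higher. Mature neutrophil markers had 1 of 9 called higher, mast cell and basophil markers 2 of 8 lower, and B cell and T and NK cell markers 0 of 8 each. Beside these counts, 5.48% of all tested peaks were called lower and 4.99% higher, by the rule for calls given below. All 3 GFI1-KD values lay below all 3 GFI1-KI values at 17.4% of single tested peaks. The part of these cell types in the results at Sorcs2 and Limch1 was not tested. In such bulk libraries fewer cells with an open site and less opening per cell cannot be told apart.

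The RefSeq promoter table (GRCm38.p6, the assembly of mm10) held 3 start sites of Limch1, all on the plus strand, each with 250 bases before and 50 after the start. They are shown because they differ in whether a peak lies over them. CpG dinucleotides are in capitals.
Limch1 chr5:66745639-66745938: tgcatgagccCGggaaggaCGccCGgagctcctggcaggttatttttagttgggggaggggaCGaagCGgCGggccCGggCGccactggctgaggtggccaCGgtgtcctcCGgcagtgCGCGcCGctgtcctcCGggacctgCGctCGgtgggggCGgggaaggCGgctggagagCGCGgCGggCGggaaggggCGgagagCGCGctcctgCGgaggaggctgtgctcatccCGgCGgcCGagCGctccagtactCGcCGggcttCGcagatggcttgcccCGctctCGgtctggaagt
Limch1 chr5:66857219-66857518: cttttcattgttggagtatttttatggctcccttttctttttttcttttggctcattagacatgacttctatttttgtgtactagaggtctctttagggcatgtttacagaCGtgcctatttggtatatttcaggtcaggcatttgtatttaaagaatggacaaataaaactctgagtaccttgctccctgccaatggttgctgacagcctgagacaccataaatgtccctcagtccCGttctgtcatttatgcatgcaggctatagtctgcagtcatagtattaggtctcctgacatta
Limch1 chr5:66968178-66968477: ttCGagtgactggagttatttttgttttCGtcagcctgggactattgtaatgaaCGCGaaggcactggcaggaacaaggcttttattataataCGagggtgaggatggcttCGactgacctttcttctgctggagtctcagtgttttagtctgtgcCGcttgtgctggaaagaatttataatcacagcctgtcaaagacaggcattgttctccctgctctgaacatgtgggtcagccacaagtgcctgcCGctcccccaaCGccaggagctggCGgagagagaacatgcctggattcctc
The first window holds 35 CpG dinucleotides and 72.7% G and C, against a median of 7 and 52.7% over 32851 promoters in the table. The second holds 2 CpG and 39.7% G and C, and the third 10 CpG. A search of both strands found GGGCGG, the GC box, which contains a CpG, 3 times in the first window and in neither of the others, and 35.7% of all promoters hold it. AATC, the core letters of GFI1 binding sites, occurred 0 times in the first and second windows and 2 times in the third, and 73.1% of all promoters hold it.

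A peak of low level lay over the first Limch1 start site, and none over the other start sites, whose nearest peaks were 14.1 kb and 9.7 kb away. The peak from 66745712 to 66746142 held 30.0, 18.5 and 35.5 normalized reads in KD1, KD2 and KD3, and 38.3, 29.8 and 24.9 in KI1, KI2 and KI3. The genotypes overlapped, and the peak was not called. Beside it, still within 1 kb of the gene's end, lay a pair of peaks with means under 10 normalized reads, which were not tested. The one from 66746153 to 66746384 held 1.1, 0.0 and 11.1 in KD1, KD2 and KD3, and 9.0, 7.0 and 6.8 in KI1, KI2 and KI3. The other, from 66746477 to 66746633, held 6.4, 11.1 and 5.5 in KD1, KD2 and KD3, and 2.3, 7.0 and 8.3 in KI1, KI2 and KI3. Scaled to length, the most open gene-end peak of Limch1 held 6.8 normalized reads per 100 bp over all 6 libraries, the 1.2th percentile of 14342 genes with a gene-end peak, whose median was 55.3. For Sorcs2 the corresponding level was 35.3 normalized reads per 100 bp, the 35.2th percentile.

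Fold changes below are of GFI1-KD over GFI1-KI in log2 units after adding 1 to each value, a step that shrinks the change of weak peaks, and are given with standard errors. A peak is called if its adjusted p in limma, fitted across all tested peaks, is under 0.05. Of 170733 tested peaks 5.48% were called lower and 4.99% higher in GFI1-KD, a balance that moved with scaling, since 47.7% of calls were higher here and 60.0% under median-of-ratios scaling. At Sorcs2 13 of 35 tested peaks were called lower and 0 higher, and at Limch1 11 of 26 were called lower and 0 higher. Nothing is read from these shares, since they chose the genes. All 3 GFI1-KD values lay below all 3 GFI1-KI values at 15 tested Sorcs2 peaks and 14 tested Limch1 peaks, against 17.4% of all tested peaks. The filter on low values, a mean of at least 10 normalized reads, removed 1 peak of Sorcs2 and 4 of Limch1.

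**Figure D1:**
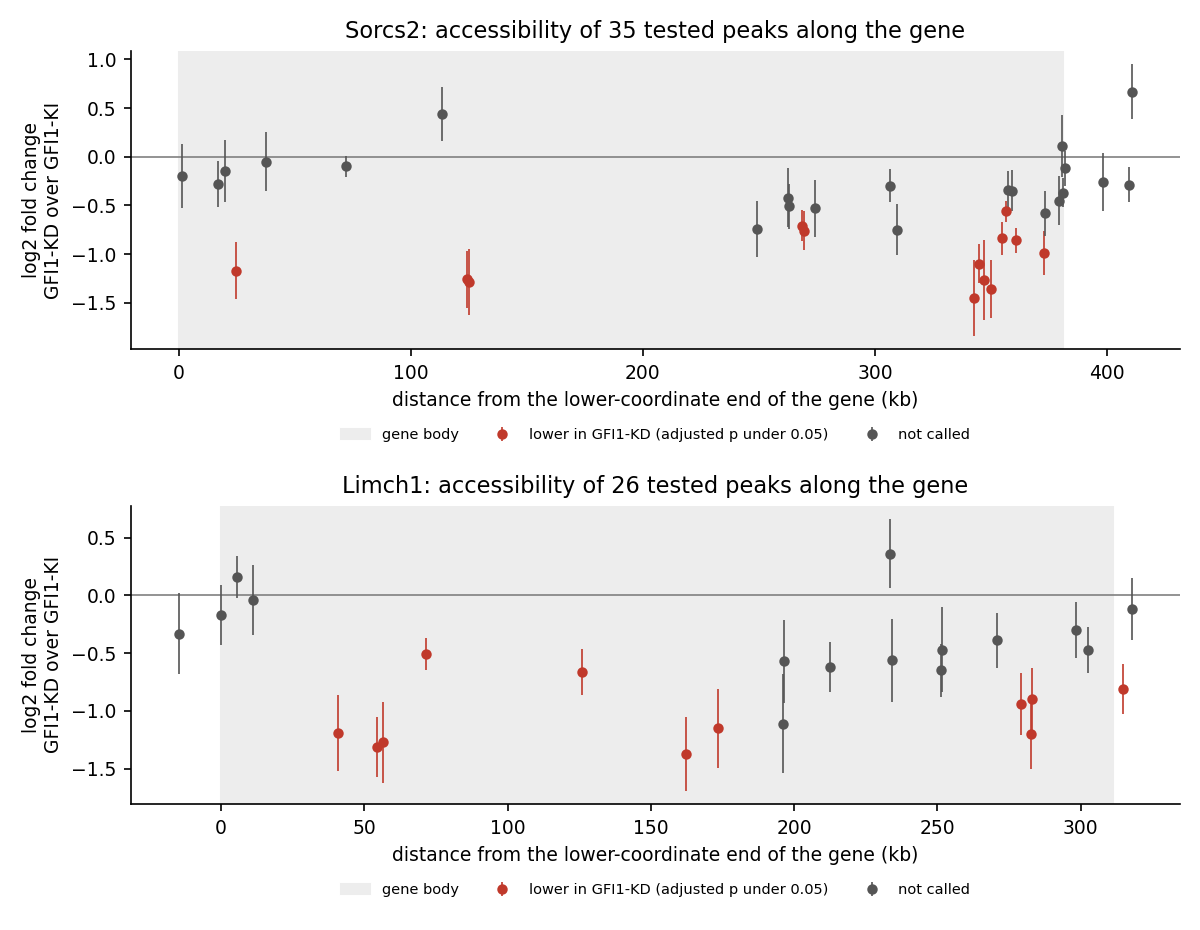
Log2 fold change (GFI1-KD over GFI1-KI, points, with SE bars) of each tested peak against its distance in kb from the lower-coordinate end of the gene, for Sorcs2 (above) and Limch1 (below), with the gene body shaded. Called peaks, all lower in GFI1-KD, crowd between 342.8 and 372.9 kb along Sorcs2 and are spread along Limch1. Tested peaks of Sorcs2 are also densest towards that end of the gene.

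Summed over its 36 peaks, Sorcs2 held 2398.9, 1905.6 and 2098.9 normalized reads in KD1, KD2 and KD3, and 2952.2, 2832.8 and 2629.5 in KI1, KI2 and KI3. Each GFI1-KD sum was below each GFI1-KI sum. The ratio of the means was 0.76, against 0.97 over all peaks. Limch1 held less in all, with 708.3, 778.8 and 670.8 in KD1, KD2 and KD3, and 1149.6, 996.6 and 999.8 in KI1, KI2 and KI3 over 30 peaks, a ratio of 0.69. Summed over the peaks that were not called or not tested, the means were 1583.4 ± 250.2 in GFI1-KD and 1826.6 ± 141.8 in GFI1-KI at Sorcs2, and 395.3 ± 25.8 in GFI1-KD and 483.0 ± 27.0 in GFI1-KI at Limch1 (SD, n = 3 each). Of the tested peaks 32 of 35 at Sorcs2 and 24 of 26 at Limch1 had a fold change below 0, with medians of -0.51 and -0.59, against -0.05 over all tested peaks. Of all 170733 tested peaks 96445 had a fold change below 0. These sums, ratios and fold changes come from the comparison that chose the genes, so they describe the choice and test nothing.

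Along Sorcs2 the peaks were uneven. None lay in the 123.9 kb from 36142171 to 36266117, a stretch that contains the small gene Psapl1. The most open site of Sorcs2, both in reads and per length, from 36089105 to 36089747, held 961.9, 651.6 and 724.0 normalized reads in KD1, KD2 and KD3, and 943.5, 781.8 and 760.5 in KI1, KI2 and KI3. Its genotypes overlapped and it was not called, with a fold change of -0.10 ± 0.11. At 125.0 normalized reads per 100 bp it stood at the 98.4th percentile of all peaks in the table. Near the upper end of Sorcs2 (36398197) 3 peaks lay within 1 kb, and none of them was called. The strongest of them, from 36397831 to 36398320, held 175.5, 111.1 and 171.9 normalized reads in KD1, KD2 and KD3, and 194.8, 184.9 and 200.9 in KI1, KI2 and KI3, a fold change of -0.37 ± 0.15. Here all GFI1-KD values lay below the GFI1-KI values. The peak from 36397538 to 36397738 held 13.9, 13.6 and 15.5 in KD1, KD2 and KD3, and 14.6, 11.4 and 13.6 in KI1, KI2 and KI3 (0.11 ± 0.32). The one from 36399029 to 36399270 held 76.0, 54.3 and 63.2 in KD1, KD2 and KD3, and 65.3, 83.3 and 61.2 in KI1, KI2 and KI3 (-0.12 ± 0.18). The genotypes overlapped at both.

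The called peaks of Sorcs2 were concentrated near the same end of the gene without reaching it. Of the 13, 8 stood among the 10 peaks in the 30.4 kb from 36359830 to 36390239, a stretch picked out after its values were seen. These 10 peaks summed to 504.0, 497.4 and 515.6 normalized reads in KD1, KD2 and KD3, and to 844.5, 902.8 and 788.4 in KI1, KI2 and KI3. The GFI1-KD sums were within a narrow range, far under the lowest GFI1-KI sum. The stretch includes the called peak with most reads, from 36373236 to 36373902, which held 184.0, 191.3 and 192.9 in KD1, KD2 and KD3, and 293.9, 272.6 and 274.1 in KI1, KI2 and KI3. Its fold change of -0.56 ± 0.11 was the smallest of the 13. Close by, the peak from 36377461 to 36377823 held 97.4, 90.1 and 97.6 in KD1, KD2 and KD3, and 175.6, 187.6 and 158.6 in KI1, KI2 and KI3 (-0.86 ± 0.13). The remaining called peak with over 50 normalized reads in this stretch lay from 36371740 to 36372108 and changed by -0.84 ± 0.17.

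The largest decreases were at weaker peaks. The peak from 36359830 to 36360034 held 8.6, 3.7 and 6.7 normalized reads in KD1, KD2 and KD3, and 14.6, 25.4 and 15.9 in KI1, KI2 and KI3, a fold change of -1.45 ± 0.39. Its neighbour from 36367202 to 36367399 held 11.8, 9.9 and 7.8 in KD1, KD2 and KD3, and 28.1, 28.0 and 23.4 in KI1, KI2 and KI3 (-1.36 ± 0.30). Between them, the peak from 36364134 to 36364321 held 3.2, 11.1 and 7.8 in KD1, KD2 and KD3, and 14.6, 21.9 and 16.6 in KI1, KI2 and KI3 (-1.27 ± 0.41). It was the called Sorcs2 peak nearest to the threshold, at an adjusted p of 0.0484 in limma. Nearest on the other side, at 0.0704, was the peak from 36326488 to 36326729, which held 12.8, 17.3 and 21.1 in KD1, KD2 and KD3, and 28.1, 28.0 and 30.2 in KI1, KI2 and KI3. Both peaks separated the genotypes.

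An adjoining pair lay far from this stretch, 124.1 and 124.9 kb from the lower end of the gene. The peak from 36141222 to 36141424 held 9.6, 13.6 and 8.9 normalized reads in KD1, KD2 and KD3, and 24.8, 26.3 and 28.7 in KI1, KI2 and KI3 (-1.26 ± 0.29). The next, from 36141981 to 36142171, held 10.7, 6.2 and 7.8 in KD1, KD2 and KD3, and 18.0, 24.5 and 21.1 in KI1, KI2 and KI3 (-1.29 ± 0.34). Another pair, at 36285326 to 36285890 and 36286428 to 36286689, held more reads and changed less, by -0.71 ± 0.16 and -0.76 ± 0.20. The remaining called peaks lay from 36041849 to 36042131 (-1.17 ± 0.29), from 36361711 to 36362138 (-1.10 ± 0.20) and from 36389980 to 36390239 (-0.99 ± 0.23). Over all 13, which were called in this same comparison, the GFI1-KD values stayed below the GFI1-KI values at every peak. The 4 members beyond the gene's end at 36398197, up to 29.6 kb from it, were not called.

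**Figure D2:**
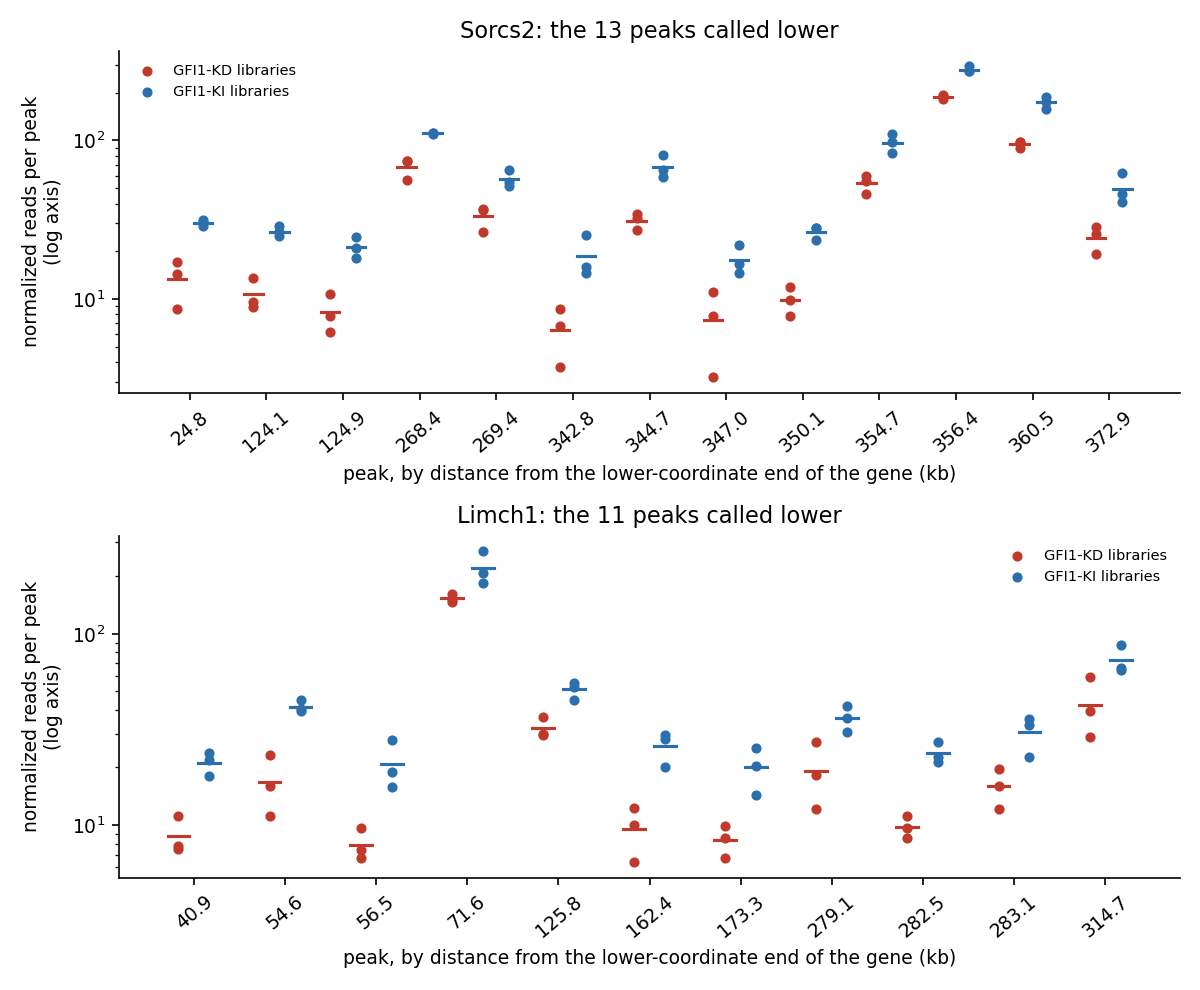
Normalized reads per peak (log axis) in each GFI1-KD library (left of each pair) and each GFI1-KI library (right) at the 13 Sorcs2 and 11 Limch1 peaks called lower, by distance in kb from the lower-coordinate end of the gene, with short lines at the group means. The groups do not overlap at any of these peaks, which were chosen by this comparison.

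Limch1 had its called peaks spread from 66786647 to 67060764, with none at its first start site. The Limch1 peak with most reads, from 66816985 to 66817984 and the longest of the gene's peaks, held 150.9, 161.7 and 146.4 normalized reads in KD1, KD2 and KD3, and 270.2, 184.9 and 208.4 in KI1, KI2 and KI3 (-0.51 ± 0.14). The GFI1-KI libraries differed more among themselves than the GFI1-KD libraries did, KI1 being highest. Scaled to length it held 15.3 normalized reads per 100 bp in GFI1-KD and 22.1 in GFI1-KI, close to the 15.95 in GFI1-KD and 22.3 in GFI1-KI of the peak from 67048157 to 67048371, which was not called. Second in reads, though not per 100 bp, was the peak from 66751353 to 66751767, inside the gene near its first start site, with 54.6, 67.9 and 69.9 in KD1, KD2 and KD3, and 51.8, 53.5 and 67.2 in KI1, KI2 and KI3. Here the genotypes overlapped, and the fold change was 0.16 ± 0.18.

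The largest decrease at Limch1 was at the peak from 66908143 to 66908414, which held 6.4, 12.3 and 10.0 normalized reads in KD1, KD2 and KD3, and 28.1, 20.2 and 29.5 in KI1, KI2 and KI3 (-1.37 ± 0.32). Next came the peak from 66800327 to 66800600, with 16.0, 11.1 and 23.3 in KD1, KD2 and KD3, and 45.0, 40.3 and 39.3 in KI1, KI2 and KI3 (-1.31 ± 0.26). The genotypes did not overlap at either, but both peaks were picked as the largest decreases among called peaks. The peak from 66802318 to 66802498 held 9.6, 7.4 and 6.7 in KD1, KD2 and KD3, and 15.8, 28.0 and 18.9 in KI1, KI2 and KI3 (-1.27 ± 0.35). With 66786647 to 66786938, where KD1, KD2 and KD3 held 7.5, 11.1 and 7.8 and KI1, KI2 and KI3 held 18.0, 23.7 and 21.9 (-1.19 ± 0.33), these peaks and the peak with most reads formed an uninterrupted group of 4 called peaks over 31.3 kb. The group, picked out after its values were seen, summed to 184.0, 191.3 and 184.1 in KD1, KD2 and KD3, and to 349.0, 277.0 and 288.5 in KI1, KI2 and KI3.

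Towards the other end of Limch1, 4 of 6 peaks in the 36.0 kb from 67024811 to 67060764 were called lower. As with the stretches above, its ends were set by called peaks after their values were seen, which raises the share by construction. Among them the peak from 67028335 to 67028539 held 9.6, 8.6 and 11.1 normalized reads in KD1, KD2 and KD3, and 21.4, 22.8 and 27.2 in KI1, KI2 and KI3 (-1.20 ± 0.30). The last, from 67060414 to 67060764, lay 3.3 kb outside the gene and changed by -0.81 ± 0.22. The others were at 67024811 to 67025073 (-0.94 ± 0.27) and 67028890 to 67029173 (-0.90 ± 0.27). Called peaks in the middle of the gene were at 66871581 to 66871866 (-0.66 ± 0.20) and 66919041 to 66919282 (-1.15 ± 0.34). The peak from 67028890 to 67029173, with 16.0, 19.7 and 12.2 in KD1, KD2 and KD3 and 36.0, 22.8 and 33.2 in KI1, KI2 and KI3, was the called peak nearest to the threshold (limma adjusted p of 0.0387). The nearest on the other side, at 0.077, lay from 66996917 to 66997168 and held 24.6, 21.0 and 32.2 in KD1, KD2 and KD3, and 40.5, 33.3 and 49.8 in KI1, KI2 and KI3.

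The genes differed in how far the calls changed when a library was left out. At Sorcs2 7 of the 13 calls were kept whichever library was left out, and 8 peaks were called without KI2, and also without KI3. At Limch1 the peak from 66800327 to 66800600 alone kept its call throughout, and the count was 4 without KD3, 5 without KI1, 5 without KI2 and 1 without KI3. Without KD1 and KI2, the libraries almost free of chromosome Y reads, 8 Sorcs2 and 6 Limch1 peaks were called lower. DESeq2 called 7 at Sorcs2 and 3 at Limch1, giving no adjusted p for 3 of the called peaks of each gene. The median called peak averaged 36.9 normalized reads at Sorcs2 and 23.3 at Limch1, so most calls rest on few reads. No member was called higher under any alternative tried.

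Peaks around the genes, which the choice of members did not use, were examined next. Within 500 kb of the ends of Sorcs2, 17 of 169 tested peaks were lower in GFI1-KD and 4 higher, or 10.1% and 2.37%, with a median fold change of -0.10. Within the same distance of Limch1, 13 of 113 were lower and 1 higher, or 11.5% and 0.885%, with a median of -0.22. For all tested peaks the shares were 5.48% and 4.99% and the median -0.05, and over chromosome 5 without the members they were 6.42% and 4.82% and -0.06. The higher count around Sorcs2 depended on the scaling, with 15 lower and 8 higher under median-of-ratios scaling, 16 and 8 under equal totals, and 17 and 9 in edgeR. Around Limch1 median-of-ratios scaling and equal totals each gave 13 lower and 2 higher, and edgeR 14 and 2. Within 200 kb the lower counts were 10 of 66 around Sorcs2 and 6 of 31 around Limch1. Lower peaks occurred on both sides of both genes, 11 below and 6 above Sorcs2, and 6 below and 7 above Limch1. Without KI2 the counts of called flanking peaks dropped to 7 for Sorcs2 and 3 for Limch1, without KI3 to 9 and 6, and without KD3 to 8 and 8. Without KD2 the Limch1 count was 8.

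**Figure D3:**
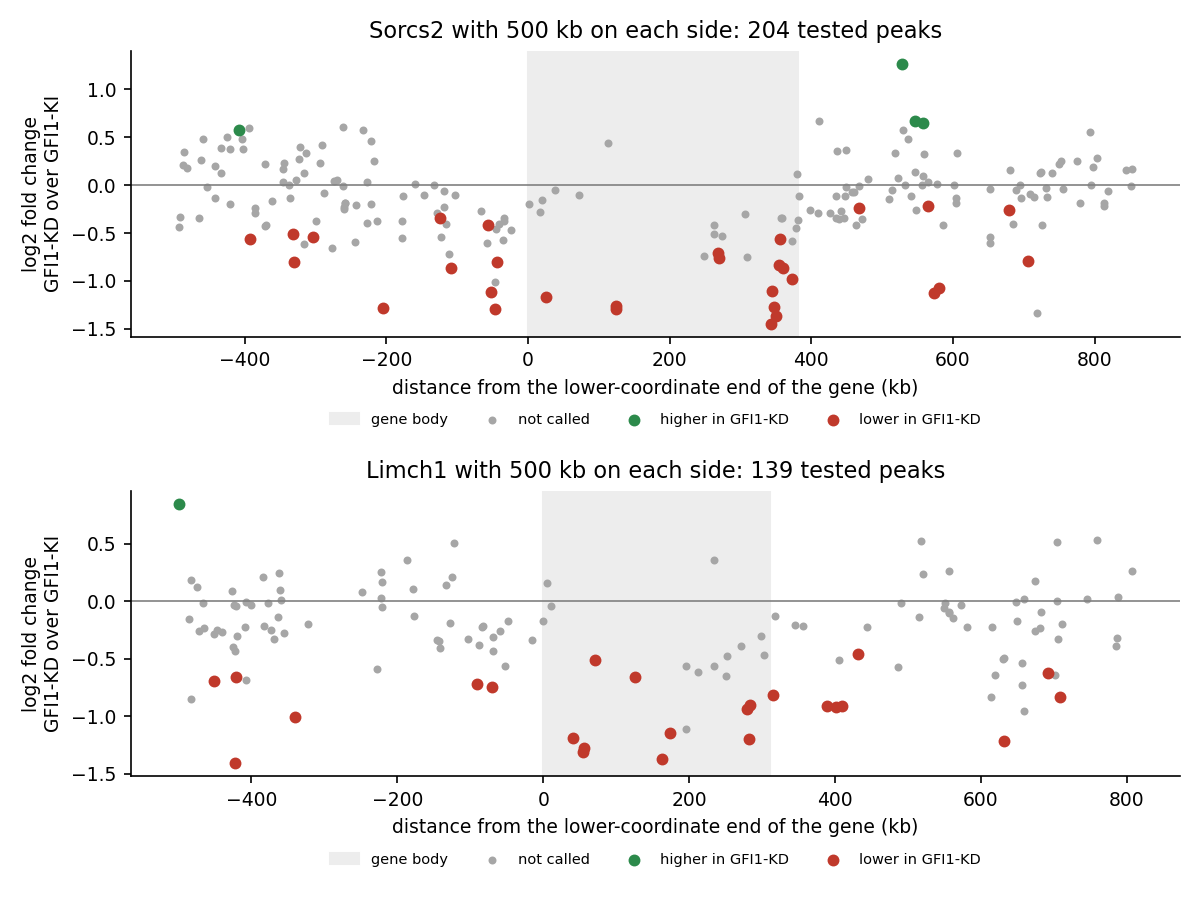
Log2 fold change (GFI1-KD over GFI1-KI) of every tested peak within 500 kb of Sorcs2 (above) and Limch1 (below) against distance in kb from the lower-coordinate end of the gene, with the gene body shaded and called peaks in colour. Around Sorcs2 17 flanking peaks are lower and 4 higher, and around Limch1 13 are lower and 1 higher.

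Next to Sorcs2 lies Afap1, which encodes an actin filament-associated adaptor protein. Of its 21 tested peaks 6 were lower and none higher, beside 5.48% lower and 4.99% higher over all tested peaks. The Afap1 peak from 35973831 to 35974242 held 49.2, 40.7 and 53.2 normalized reads in KD1, KD2 and KD3, and 88.9, 87.6 and 74.0 in KI1, KI2 and KI3 (-0.80 ± 0.18, limma adjusted p = 0.00569). The genotypes did not overlap at this peak, the only Afap1 peak whose call was kept whichever library was left out. At Htra3, which encodes a secreted serine protease, 2 of 11 were lower, and at Tbc1d14, which encodes a TBC-domain protein, 2 of 21 were lower and 3 higher. The strongest change in this flank was near D5Ertd579e, from 36597653 to 36598241, with 215.1, 120.9 and 150.8 in KD1, KD2 and KD3, and 278.1, 324.3 and 407.0 in KI1, KI2 and KI3 (-1.07 ± 0.16, limma adjusted p = 0.000272). In the opposite direction, a peak inside Tbc1d14 from 36544389 to 36544663 held 47.1, 33.3 and 41.0 in KD1, KD2 and KD3, and 13.5, 18.4 and 16.6 in KI1, KI2 and KI3 (1.27 ± 0.25, limma adjusted p = 0.00215). No peak was called at Grpel1, the gene next to Sorcs2 on the other side, among 10 tested.

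Around Limch1 the lower peaks were spread over its neighbours. Uchl1, which encodes a ubiquitin hydrolase of neurons, had 2 of 10 peaks lower, and Apbb2, which encodes a binding protein of the amyloid precursor, 3 of 42. Bend4, a BEN-domain gene, had 3 of 20 lower. The peak over the end of Uchl1, from 66675969 to 66676353, held 66.3, 62.9 and 61.0 normalized reads in KD1, KD2 and KD3, and 95.7, 103.4 and 122.3 in KI1, KI2 and KI3 (-0.74 ± 0.16, limma adjusted p = 0.00461). All GFI1-KD values were below the GFI1-KI values there. Nsun7 had 1 peak higher, from 66245998 to 66246317, with 76.0, 70.3 and 78.7 in KD1, KD2 and KD3, and 41.7, 39.4 and 42.3 in KI1, KI2 and KI3 (0.85 ± 0.17, limma adjusted p = 0.00338).

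At genes related to Sorcs2 by family or ligand, few peaks were called. Of 117 tested peaks at the other VPS10P receptors, the neurotrophins and their receptors, 5 were lower and 4 higher in GFI1-KD, or 4.27% and 3.42%, near the 5.48% and 4.99% of all tested peaks, with a median fold change of 0.00. Median-of-ratios scaling and equal totals each gave 5 lower and 5 higher, edgeR 5 and 6, and DESeq2 3 and 4. Sorcs1 and Sorcs3, the closest paralogues, had 1 of 3 and 1 of 10 peaks lower. Sorl1, a receptor that sorts cargo between endosome and Golgi, had 3 of 30 lower and 1 higher, and Sort1, the founding member sortilin, 0 of 21 in either direction. The Sorl1 peak from 42076291 to 42076527 on chromosome 9 held 7.5, 3.7 and 3.3 normalized reads in KD1, KD2 and KD3, and 25.9, 29.8 and 27.2 in KI1, KI2 and KI3 (-2.36 ± 0.37, limma adjusted p = 0.000338). It was near background in GFI1-KD, where 3 reads correspond to 3.21 to 3.70 normalized reads. Ntrk2, the receptor for BDNF, had 3 of 10 peaks higher and none lower. No peak was called at Bdnf, Ntf3, Ntf5, Ngfr or Ntrk3. Even so, all 10 tested peaks of Ntrk3 had a fold change below 0, with a median of -0.43. The same held for 6 of 9 at Ngfr, 3 of 11 at Bdnf, 1 of 2 at Ntf3 and 1 of 3 at Ntf5.

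Genes tied to Limch1 through myosin held 22 lower and 11 higher peaks of 241 tested, or 9.13% and 4.56%, with a median fold change of -0.10, beside 5.48% and 4.99% of all tested peaks. The balance depended on the scaling, with 15 lower and 14 higher under median-of-ratios scaling, 17 and 14 under equal totals, 19 and 15 in edgeR, and 7 and 10 in DESeq2. Myh14, which encodes a heavy chain of non-muscle myosin II, accounted for 7 of the lower peaks, out of 17 tested, and had none higher. Its peak from 44685677 to 44686464 on chromosome 7, 14.8 kb outside the gene, held 105.9, 93.8 and 88.7 normalized reads in KD1, KD2 and KD3, and 159.9, 189.3 and 180.5 in KI1, KI2 and KI3 (-0.87 ± 0.14, limma adjusted p = 0.000387). The genotypes did not overlap at any of the 7, but these were picked by being called in this same comparison. Over all tested peaks 17.4% had all 3 GFI1-KD values below all 3 GFI1-KI values. Of the other heavy chain genes, Myh9 had 3 of 38 peaks lower and 3 higher, and Myh10 had 0 of 18 called. Whether Myh14 differed from them was not tested. Among regulators, Rock2, a kinase that promotes myosin contraction, had 3 of 25 lower, and Mylk, the myosin light chain kinase, 1 of 39 lower and 3 higher. The paralogue Lmo7 had 1 of 21 higher. The number of called peaks in this list was 14 without KI2, 10 without KI3, 16 without KD3 and 20 without KD2. It was 30 without KD1 and 40 without KI1, so the count depended on which libraries were used. The count over all tested peaks moved too, from 17872 to 7245 without KI2, 6996 without KI3 and 22129 without KI1. The cause was not tested.

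**Figure D4:**
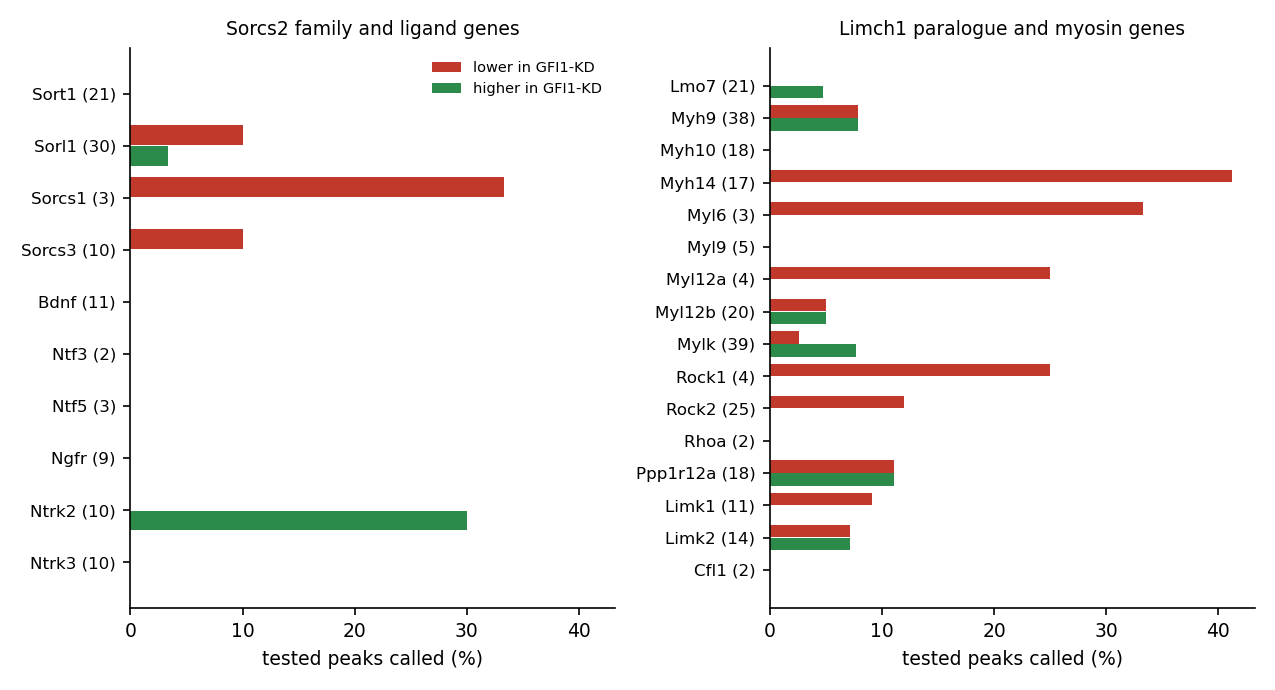
Percent of tested peaks called lower (red) and higher (green) in GFI1-KD at genes related to Sorcs2 (left) and to Limch1 (right), with the number of tested peaks in brackets. At Myh14 41.2% of 17 peaks are lower and at Ntrk2 30.0% of 10 are higher, and shares at genes with few peaks rest on 1 peak.

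Among 5187 protein-coding genes with at least 10 tested peaks, Limch1 ranked 7th and Sorcs2 19th by the share of peaks called lower (42.3% and 37.1%), and the median gene had 3.03%. By number of lower peaks Sorcs2 tied for 2nd and Limch1 for 5th. High ranks follow from how the 2 genes were chosen, so they describe the choice and test nothing. The highest shares were at Lrrn2 (7 of 10 peaks), Tex15 (7 of 11), Khdrbs3 (8 of 14), Efnb2 (6 of 11) and Bmper (8 of 16). Averaged over tested peaks and centred, the log2 level of Sorcs2 was -0.20, -0.34 and -0.29 in KD1, KD2 and KD3, and 0.32, 0.31 and 0.19 in KI1, KI2 and KI3. That of Limch1 was -0.34, -0.16 and -0.45 in KD1, KD2 and KD3, and 0.40, 0.29 and 0.27 in KI1, KI2 and KI3. KD2 was thus the lowest library at Sorcs2 and the least low of the GFI1-KD libraries at Limch1. The profiles most like that of Sorcs2 over the 6 libraries were those of Fam20b (Pearson r = 0.9965), Kcnq1 (0.9943) and Ak4 (0.9933). Most like Limch1 were Casz1 (0.9821), Arhgap24 (0.9819) and Gtf2i (0.9788), and between Sorcs2 and Limch1 r was 0.9339. These correlations describe 6 points that share libraries and genotype, and they take no account of the size of the change. Called lower were 2 of 15 tested peaks at Fam20b, 10 of 40 at Kcnq1 and 3 of 17 at Ak4. At Casz1 it was 4 of 30, at Arhgap24 10 of 37 and at Gtf2i 4 of 16. Fam20b, Kcnq1 and Casz1 also had 1 peak each called higher.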

How the data were processed

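The deposited table gave, for each peak, normalized read counts (a coverage signal) in which, judging by the values, 1 factor per library had been applied to whole reads. Per the submitters' processing notes, the build was mm10 and the tools included HOMER, MACS2, BWA and DiffBind, with Picard, Trim Galore, ChIPseeker and SAMtools. Peak merging, the origin of the factors and any transposase offset: not given in the sources used here. Columns named WT were taken as GFI1-KI, because the series title calls the other genotype low in GFI1. Dividing by the step of its column gave a whole read number for 100% of values (tolerance 0.01 reads). The chromosome codes were read in alphabetical order. Peaks were assigned to 21887 RefSeq protein-coding genes, which carry no strand in the table used.

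Peaks averaging 10 or more normalized reads (170733) entered a limma 3.58.1 fit in R 4.3.3, with trended variance, after adding 1 and taking log2. Benjamini-Hochberg adjustment covered the whole set. The script was tested on simulated data. edgeR 4.0.16 (quasi-likelihood, 21516 peaks called) and DESeq2 1.42.0 on recovered reads were alternatives, with other scalings, pseudocounts and filters, robust variance estimation, a stricter threshold, other gene margins and each library left out. Leaving out KD1 with KI2 was chosen after seeing the data. Some items are not reported here. The members and lists were chosen with earlier results of these data known. Values in every library are given for the 5 largest decreases per gene, the 2 peaks with most reads, gene-end peaks and the peaks next to the threshold, and a few others named after their values were seen. Python 3.11.15 was used for tables (pandas 2.3.3, numpy 2.4.6) and plots (matplotlib 3.10.9).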

Additional observations from a re-analysis of the deposited data

How the results depend on the processing

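The counts of called peaks in the main analysis were 17872 over all peaks, 13 (lower) at Sorcs2, 11 (lower) at Limch1, 21 and 14 in their flanks, 9 at the Sorcs2 family and ligand genes and 33 at the Limch1 paralogue and myosin genes. Other scalings, pseudocounts, no filter, robust variance estimation and edgeR kept all of these within 1.5 times. DESeq2 called 10772 over all peaks, 7 and 3 at Sorcs2 and Limch1, 9 and 4 in their flanks and 17 at the myosin genes. When the filter required 50 normalized reads on average, 12 Sorcs2 and 3 Limch1 peaks were left to test, of which 4 and 2 were called, with 7 in the Limch1 flanks and 4 at the Sorcs2 family. At an adjusted p under 0.01 the counts were 6896 over all peaks, 8 and 2 at the genes, 6 and 4 in their flanks, 5 at the Sorcs2 family and 14 at the myosin genes. Without KD1 and KI2 they were 8892 over all peaks, 8 and 6 at the genes, 11 and 6 in the flanks, 4 at the Sorcs2 family and 17 at the myosin genes. Flanks of 200 kb held 13 and 6 called peaks. Leaving out 1 library at a time gave 6996 to 22129 over all peaks, 8 to 13 at Sorcs2, 1 to 11 at Limch1, 7 to 25 and 3 to 16 in the flanks, 6 to 11 at the Sorcs2 family and 10 to 40 at the myosin genes. Fewer samples or peaks are part of these alternatives by construction, and otherwise the cause was not tested. Sorcs2 kept 32 of 35 fold changes below 0 under median-of-ratios scaling and under equal totals, and Limch1 23 and 24 of 26. The balance of all calls moved with the scaling, with 60.0% of called peaks higher under median-of-ratios scaling and 58.6% under equal totals, against 47.7% in the main analysis. The labels used here do not say whether the replicate numbers pair the samples, and the main fit did not pair them. Correlations of deviations between same-numbered libraries were -0.02, -0.04 and 0.06, and of the GFI1-KD libraries KD3 alone correlated best with its own number. Correlations over all peaks cannot exclude a shared batch, so no conclusion on pairing is drawn. With a replicate block 18940 peaks were called in all, 13 at Sorcs2, 11 at Limch1, 21 and 14 in the flanks, 9 at the Sorcs2 family and 35 at the myosin genes.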
